A study of Mus musculus with 12 samples.

Results

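Mybl1, Tcfl5, Rfx2, Sox30, Crem, Taf7l, Taf4b and Brdt are 8 mouse genes whose products drive transcription in meiotic and early haploid germ cells. They were chosen by name among the gene rows of the RNA-seq expression files, and where a name stood on several rows the row with the highest mean was taken. All 8 had a row among the 36823 named rows of the spermatocyte files, and 7 had one among the 24711 named rows of the GC2 files, where Sox30 was not listed. There were 12 libraries in 4 groups of 3. These were spermatocytes from control mice, spermatocytes from mice with a conditional knockout of Phb, control GC2 cells, and GC2 cells with a knockdown of Phb. Phb encodes prohibitin, a protein of the inner mitochondrial membrane, and GC2 is an immortalised mouse line described as cultured spermatocytes. The spermatocytes were enriched by flow sorting of cells from digested seminiferous tubules that had been stained with a Hoechst DNA dye. The Cre driver, the age of the mice and the way the knockdown was made are not stated in the sources that were used.

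Values are FPKM, fragments of a gene relative to its transcript length and to all mapped fragments, so that levels of different genes can be compared. Phb itself was at 12.6, 13.35 and 13.86 FPKM in control and 11.81, 11.33 and 11.53 in knockout spermatocytes. Since a sum over a whole gene cannot show a missing exon, these values check the knockout label only weakly. In GC2 cells Phb was at 56.62, 53.99 and 52.36 FPKM in control and 22.66, 18.37 and 19.02 in knockdown libraries. Replicates were described as biological without naming the animals or cultures, so the p-values rest on the spread among the libraries as deposited, which may be technical. In bulk samples such as these, fewer cells of a type and less RNA per cell cannot be told apart.

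Transcription in male germ cells passes through a chain of such factors. A-MYB, the product of Mybl1, is switched on as spermatocytes enter pachytene, where it activates piRNA precursors and meiotic genes and is known to act on the genes of TCFL5 and RFX2. RFX2 and SOX30 carry the program on towards round spermatids, RFX2 mainly at genes of the sperm flagellum, and CREM switches on genes of late spermatids such as the protamines. Taf7l and Taf4b encode germ cell forms of subunits of TFIID, the complex that recognises core promoters. BRDT is the testis member of the BET bromodomain proteins, which bind acetylated histones.

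Because A-MYB is reported to act on other genes of the group, the upstream sequences of the members were read for the letters it binds. RefSeq windows on GRCm38.p6 were read for 5 of the 8 members, namely Tcfl5, Rfx2, Sox30, Taf7l and Brdt. No window was read for Mybl1, Crem and Taf4b, which does not mean that none exists for them. Each sequence below is the 250 bases before the RefSeq start of transcription, written 5′ to 3′ on the strand of the gene. For Tcfl5, Rfx2 and Brdt the window reaches into the GENCODE span of the gene given further below, since the starts differ. Capitals mark the letters CAACNG or TAACNG on either strand, a MYB core with a pyrimidine before it. The windows are chr2:180642692-180642941 (minus strand) for Tcfl5, chr17:56831009-56831258 (minus strand) for Rfx2, chr11:45980060-45980309 (plus strand) for Sox30, chrX:134476491-134476740 (minus strand) for Taf7l and chr5:107330944-107331193 (plus strand) for Brdt.
Tcfl5: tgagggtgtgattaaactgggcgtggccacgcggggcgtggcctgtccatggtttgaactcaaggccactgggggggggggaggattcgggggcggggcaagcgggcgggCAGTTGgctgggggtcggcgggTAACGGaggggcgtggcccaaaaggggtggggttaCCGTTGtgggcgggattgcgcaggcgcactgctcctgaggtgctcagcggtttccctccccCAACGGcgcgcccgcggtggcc
Rfx2: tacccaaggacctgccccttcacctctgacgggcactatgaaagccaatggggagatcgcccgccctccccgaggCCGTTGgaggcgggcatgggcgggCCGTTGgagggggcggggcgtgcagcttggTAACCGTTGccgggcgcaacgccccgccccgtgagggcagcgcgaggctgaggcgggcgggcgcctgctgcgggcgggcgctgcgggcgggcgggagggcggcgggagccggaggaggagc
Sox30: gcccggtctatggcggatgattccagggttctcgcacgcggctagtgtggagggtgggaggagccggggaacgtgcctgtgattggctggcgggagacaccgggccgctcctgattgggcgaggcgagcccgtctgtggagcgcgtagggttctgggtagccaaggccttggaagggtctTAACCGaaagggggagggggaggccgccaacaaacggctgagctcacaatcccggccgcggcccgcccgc
Taf7l: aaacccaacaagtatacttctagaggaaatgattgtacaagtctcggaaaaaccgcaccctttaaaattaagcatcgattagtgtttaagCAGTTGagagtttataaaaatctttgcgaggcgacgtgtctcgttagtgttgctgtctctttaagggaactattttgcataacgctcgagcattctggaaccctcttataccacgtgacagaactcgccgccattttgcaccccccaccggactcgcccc
Brdt: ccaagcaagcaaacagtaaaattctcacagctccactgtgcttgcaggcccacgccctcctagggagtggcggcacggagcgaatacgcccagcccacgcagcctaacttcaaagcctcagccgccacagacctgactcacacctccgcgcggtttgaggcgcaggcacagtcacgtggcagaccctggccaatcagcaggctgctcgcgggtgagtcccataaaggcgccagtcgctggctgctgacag

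The windows of Tcfl5 and Rfx2 each held 4 such matches. Those of Sox30 and Taf7l held 1 each, and that of Brdt held 0. Over 32851 RefSeq windows of the same length, 43.1% held at least 1 match and 0.603% held 4 or more, with a mean of 0.594. The Tcfl5 matches started at bases -140, -118, -83 and -22 from the start of transcription. Those of Rfx2 started at -175, -151, -121 and -118, and the last pair overlap in the run TAACCGTTG. The shorter core AACNG, which 74.2% of all windows hold, was counted 6 times for Tcfl5, 4 times for Rfx2, and 2 times each for Sox30, Taf7l and Brdt. For this core 7.03% of all windows held 4 or more. Its form AACTG, which 39.1% of windows hold, was counted 2 times for Tcfl5 and 1 time for Taf7l. For Rfx2, Sox30 and Brdt the count of AACTG was 0.

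Letters of other factors in the group were fewer. The RFX core GTTGCC was found once, in the window of Rfx2 itself at bases -116 to -111, where it overlaps the last MYB match (10.4% of all windows hold it). The looser GTTNCC was counted 3 times for Tcfl5, 2 times for Rfx2 and 1 time each for Sox30 and Taf7l, and 39.4% of windows hold it. The E box CACGTG, a basic helix-loop-helix motif, was found once in Brdt and once in Taf7l, against 6.02% of windows. The full cyclic AMP response element TGACGTCA, the palindrome that CREM binds, was in none of the 5 (1.55% of windows hold it). Its core TGACG was found once, in Rfx2 (17.8% of windows). The SOX core ACAAT was found once in Sox30 and once in Taf7l (27.7% of windows). All motifs were searched on both strands, and a match is a description of letters only. The GC content of the windows was 70.4% for Tcfl5, 76.0% for Rfx2, 68.0% for Sox30, 44.8% for Taf7l and 62.4% for Brdt.

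**Figure D1:**
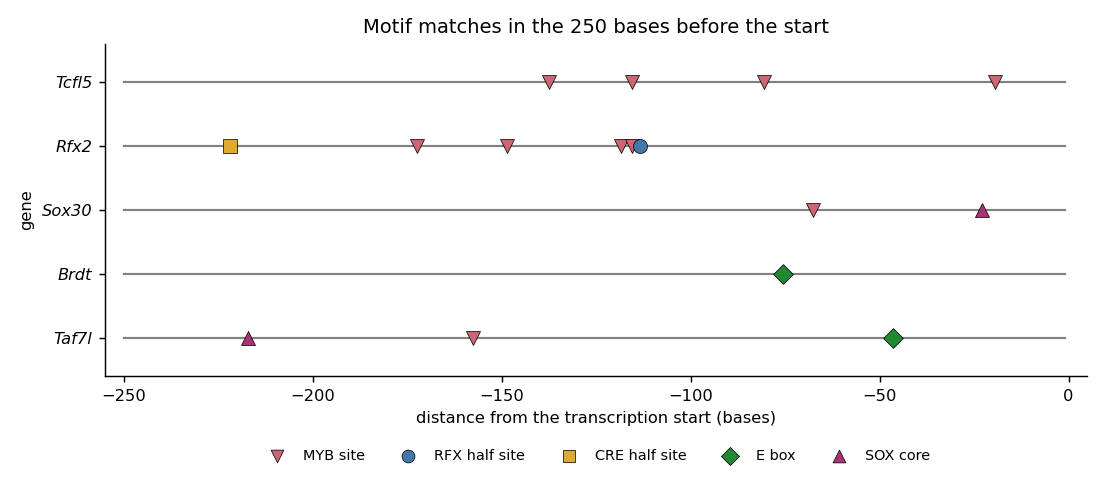
Motif matches in the 250 bases before the start of transcription of 5 members (horizontal axis: distance from the start in bases; one line per gene). Tcfl5 and Rfx2 carry 4 MYB matches each (CAACNG or TAACNG), Sox30 and Taf7l 1 each and Brdt 0, and the RFX match of Rfx2 lies over its last MYB matches.

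In control spermatocytes all 8 genes were expressed, in a range from 11.1 FPKM for Taf4b to 87.7 for Tcfl5. Tcfl5 and Taf7l stood highest, at 87.7 ± 3.61 and 80.1 ± 1.70 FPKM (mean ± SD, n = 3 for all values of a group), and their libraries did not overlap. Brdt followed at 38.2 ± 0.604. Rfx2, Mybl1 and Sox30 were at 19.98 ± 5.65, 18.0 ± 0.490 and 16.5 ± 0.394, and the Rfx2 libraries overlapped those of both others. Crem at 12.3 ± 0.242 and Taf4b at 11.1 ± 0.215 were lowest.

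The comparison of Phb knockout with control spermatocytes split the 8 genes into 2 sets. Mybl1, Tcfl5, Rfx2, Sox30, Crem and Brdt fell, to between 6.52% and 38.3% of control, while the TFIID subunit genes Taf7l and Taf4b rose slightly. For Taf4b this holds for the row taken only, since a second row fell (-2.82) and the sum of both was lower (-0.22). All 8 were called, and in all 8 the knockout libraries did not overlap the control libraries. These counts are to be read against a comparison in which most rows moved. Calls were made for 79.4% of 15957 tested rows, with 38.5% lower and 40.9% higher, and 81.8% did not overlap. A fall of at least 2-fold was called for 6 of the 8 members and for 21.6% of all rows. The median log2 fold change was -2.01 over the members and 0.05 over all rows. Calls are limma's test on log2(FPKM + 1) at a Benjamini-Hochberg adjusted p under 0.05, and fold changes on that scale understate changes of low genes.

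**Figure D2:**
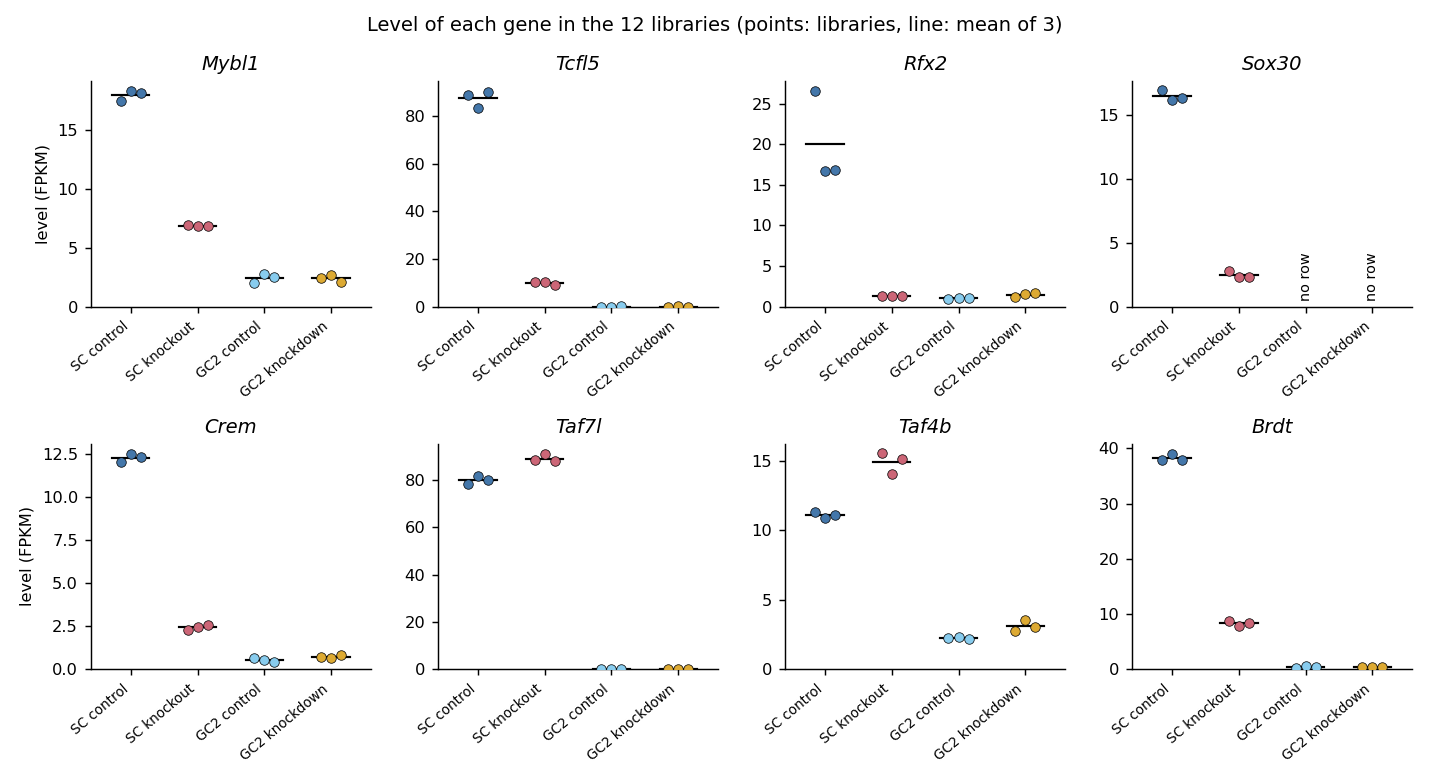
Level of each of the 8 genes in FPKM (vertical axes, each from 0) in the 12 libraries, with 1 point per library and a line at the mean of 3. In spermatocytes (SC) the knockout points of Mybl1, Tcfl5, Rfx2, Sox30, Crem and Brdt lie below all control points and those of Taf7l and Taf4b above, while most GC2 points lie near 0 and Sox30 has no GC2 row. The SC points of Taf4b are those of its annotated row, and its assembled SC row is not drawn.

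Mybl1 (ENSMUSG00000025912.16, chromosome 1, 9667415 to 9700209, minus strand, GRCm38) encodes A-MYB, the factor at the head of the pachytene program. Its level was 17.41, 18.33 and 18.16 FPKM in the 3 control libraries and 6.95, 6.87 and 6.80 in the 3 knockout libraries. The knockout values varied little (SD 0.0751 FPKM) and lay far below every control. The knockout mean of 6.87 was 38.3% of control. On the log2 scale this was -1.27 (SE 0.033, adjusted p = 2.7e-07). Among the 6 genes that fell, this was the smallest change, and 18.0% of all tested rows had a lower one.

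Tcfl5 (ENSMUSG00000038932.13, chromosome 2, 180621956 to 180642708, minus strand) encodes a basic helix-loop-helix factor of pachytene cells. It stood at 89.07, 83.57 and 90.38 FPKM in control and at 10.37, 10.12 and 9.21 in knockout libraries. The most abundant of the 8 genes in control was thus at 11.3% of its level, below Taf7l and Taf4b. The log2 fold change was -3.02 (SE 0.053, adjusted p = 5.8e-08), and 5.51% of rows had a lower one.

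Rfx2 (ENSMUSG00000024206.15, chromosome 17, 56775897 to 56831013, minus strand) encodes a winged-helix factor of flagellar genes. Its control libraries held 26.50, 16.66 and 16.78 FPKM and its knockout libraries 1.29, 1.33 and 1.29. Control replicate 1 stood well above the other controls, yet all 3 were above every knockout library. The knockout mean was 6.52% of control, the lowest share among the 8, and the log2 fold change was -3.15 (SE 0.18, adjusted p = 9.0e-06). Left out 1 library at a time, the change ranged from -3.26 to -2.94.

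Sox30 (ENSMUSG00000040489.5, chromosome 11, 45980310 to 46017994, plus strand) encodes an HMG-box factor of late meiotic and round spermatid genes. It stood at 16.91, 16.15 and 16.35 FPKM in control and at 2.78, 2.31 and 2.29 in knockout libraries. Every knockout library was under 3 FPKM and every control above 16. The knockout mean was 14.9% of control (log2 fold change -2.34, SE 0.064, adjusted p = 3.5e-07). From the steps between low FPKM values, and for its single transcript of 2997 bases, these levels correspond to about 770, 741 and 789 fragments in control and 130, 79.6 and 106 in knockout libraries.

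Crem (ENSMUSG00000063889.16, chromosome 18, 3266048 to 3337748, minus strand) encodes activator and repressor forms of a cyclic AMP response factor from 1 locus. Its row held 38 annotated transcripts, so its value does not tell those forms apart. It stood at 12.03, 12.51 and 12.33 FPKM in control and at 2.30, 2.45 and 2.56 in knockout libraries. The groups lay far apart, with a knockout mean at 19.8% of control, or -1.95 on the log2 scale (SE 0.044, adjusted p = 1.6e-07).

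Brdt (ENSMUSG00000029279.15, chromosome 5, 107331159 to 107387058, plus strand) encodes the testis BET protein, which reads acetylated chromatin in spermatocytes and later compacts it in spermatids. It stood at 37.88, 38.91 and 37.85 FPKM in control and at 8.67, 7.88 and 8.40 in knockout libraries. The knockout mean was 21.8% of control (log2 fold change -2.07, SE 0.039, adjusted p = 8.1e-08), and 10.4% of rows had a lower change.

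Ordered by change of log2(FPKM + 1), some neighbours in the group lay close together, and their distances depended on the pseudocount of 1. Rfx2 and Tcfl5 differed by 0.13 with a standard error of 0.19, whereas with a pseudocount of 0.1 their changes were -3.80 and -3.13. Brdt and Crem differed by 0.12 (SE 0.059), with Brdt the lower. That order turned with a pseudocount of 0.1, at -2.19 for Brdt and -2.29 for Crem, as it does by share of control (21.8% and 19.8%). Sox30 and Brdt differed by 0.26 (SE 0.075). The wider steps were those from Tcfl5 to Sox30 (0.69, SE 0.083), from Crem to Mybl1 (0.68, SE 0.055) and from Mybl1 to Taf7l (1.42, SE 0.042). As levels in knockout libraries, Sox30 and Crem overlapped, at 2.46 ± 0.277 and 2.44 ± 0.131 FPKM.

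Taf7l and the annotated row of Taf4b did not follow the other 6. Taf7l (ENSMUSG00000009596.9, chromosome X, 134460118 to 134476490, minus strand) encodes the germ cell counterpart of the TFIID subunit TAF7. It stood at 78.40, 81.79 and 80.09 FPKM in control and at 88.39, 90.69 and 87.76 in knockout libraries. The groups did not overlap, but the rise was small, to 111% of control (log2 fold change 0.15, SE 0.026, adjusted p = 0.0022). With 54.9% of tested rows having a lower change, Taf7l lay near the middle of all rows. Rows on the X chromosome were mostly higher in the same libraries, with 418 calls higher and 81 lower among 624 tested and a median of 0.65, which is above the change of Taf7l.

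Taf4b (ENSMUSG00000054321.7, chromosome 18, 14783245 to 14900359, plus strand) encodes a TFIID subunit related to TAF4 that is needed to maintain the germ line. Its name stood on 2 rows of the spermatocyte files, 1 with annotated transcripts and 1 with an assembled transcript only. The annotated row, which had the higher mean, was at 11.30, 10.87 and 11.09 FPKM in control and 15.56, 14.07 and 15.10 in knockout libraries. It rose to 134% of control (log2 fold change 0.40, SE 0.044, adjusted p = 0.00024).

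The assembled row of Taf4b went the other way. It was at 5.80, 7.17 and 6.47 FPKM in control and at 0.00, 0.18 and 0.00 in knockout libraries. Its log2 fold change was -2.82 (SE 0.10, adjusted p = 1.1e-06), among the lower changes of all rows (6.31% were lower). When both rows were summed, Taf4b was lower in the knockout, with a log2 fold change of -0.22 (adjusted p = 0.0032). The direction for Taf4b therefore depends on which row is read, and the files give no position for the assembled transcript.

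**Figure D3:**
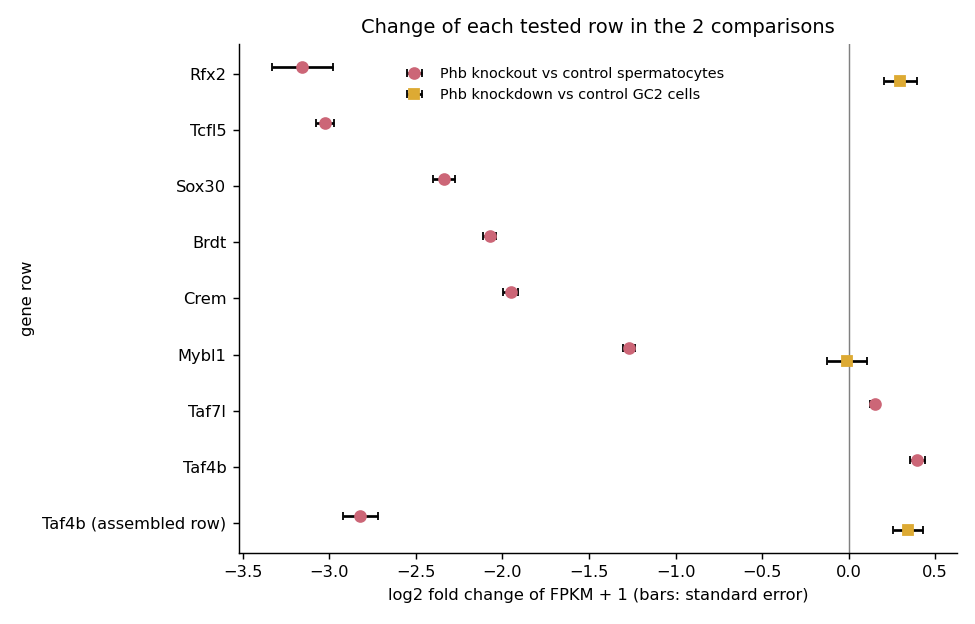
Log2 fold change of FPKM + 1 (horizontal axis; bars are standard errors) of each tested row in knockout against control spermatocytes (circles) and in knockdown against control GC2 cells (squares). Circles run from -3.15 for Rfx2 to 0.40 for the annotated row of Taf4b, the assembled Taf4b row lies at -2.82, and the 3 GC2 squares lie between -0.01 and 0.34.

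Of the germ cell forms, 5 were then set against a relative that many cell types use, as a ratio of FPKM within a library. Rfx2 was 3.62 ± 1.09 times the level of Rfx1 in control and 0.253 ± 0.0129 times in knockout spermatocytes, a log2 ratio change of -3.80. Mybl1 went from 1.44 ± 0.0232 to 0.728 ± 0.00718 times the row that Mybl2 shares with Ift52 (-0.99). In both pairs the germ cell form was above the row of its relative in control and below it in knockout libraries. For Mybl2 the part of the shared row that is Mybl2 is not known.

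Taf7l stayed ahead of Taf7, at 3.66 ± 0.123 times its level in control and 4.46 ± 0.183 times in knockout libraries (0.28). The ratio of Crem to Creb1 varied widely between replicates, because Creb1 lay at 1.09, 3.03 and 3.07 FPKM in control and at 5.49, 1.5 and 2.77 in knockout libraries. It was 6.39 ± 4.02 in control and 0.992 ± 0.610 in knockout, with no overlap. Taf4b to Taf4 was 1.42 ± 0.0804 in control and 2.35 ± 1.29 in knockout, where Taf4 of knockout replicate 3 was at 3.94 FPKM against 9.08 and 9.39 in the others. For 4 of the 5 pairs the exact two-sided permutation test gave p = 0.1 (0.125 adjusted over the 5 pairs), the smallest that 3 against 3 libraries allow, and for Taf4b to Taf4 the exact p was 0.2.

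**Figure D4:**
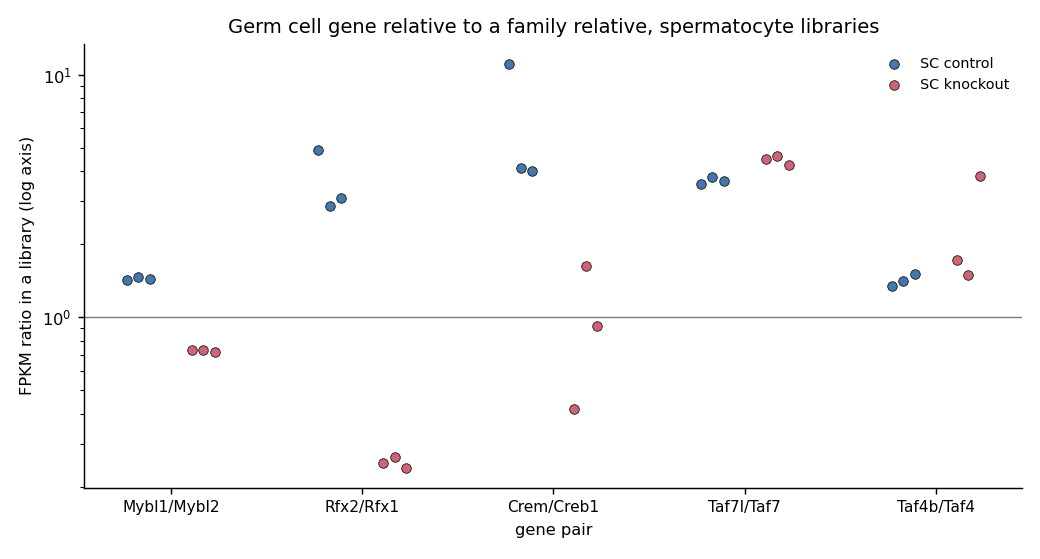
Ratio of the FPKM of a germ cell form to that of a relative (vertical log axis) in each control and knockout spermatocyte library, for 5 gene pairs, with a line at a ratio of 1. The points of Mybl1/Mybl2 and Rfx2/Rfx1 cross from above 1 in control to below 1 in knockout libraries, and those of Taf7l/Taf7 stay above 1. The Mybl2 values are those of a row shared with Ift52.

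The relatives did not move as a block. Of 13 tested, the 5 of these ratios among them, 3 rose and 5 fell, with a median of -0.13 against 0.05 over all rows. Over all tested rows 40.9% were called higher and 38.5% lower. The largest fall was in Rfx4, another RFX factor gene, at 11.97 ± 0.388 FPKM in control and 0.11 ± 0.0755 in knockout libraries (-3.55 on the log2 scale, adjusted p = 6.7e-08). Rfx7 rose from 4.87 ± 0.122 to 6.58 ± 0.0866 (adjusted p = 0.00014), and Rfx1 was not called (adjusted p = 0.12).

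TFIID and TFIIA, the general machinery that Taf7l and Taf4b belong to, was mostly lower by small amounts. Of 20 tested genes 15 fell and 1 rose, with a median of -0.33, and 4 fell at least 2-fold. The shares over all rows were 38.5% lower, 40.9% higher and 21.6% lower by at least 2-fold. The 2 that fell most were Gtf2a1l and Tbpl1. Gtf2a1l, the germ cell form of a TFIIA subunit, went from 57.3 ± 1.73 to 0.267 ± 0.142 FPKM (-5.53 on the log2 scale, adjusted p = 3.5e-08). Tbpl1, which encodes a TBP-related factor, went from 60.7 ± 7.66 to 9.80 ± 0.610 (-2.51, adjusted p = 1.5e-06). Tbpl1 was also expressed in control GC2 cells, at 14.14, 11.84 and 13.5 FPKM. Tbp itself went from 7.74 ± 0.257 to 2.35 ± 0.202, and a row shared by Taf9 and Ak6 from 147 ± 2.07 to 44.8 ± 1.13. These counts depended on scaling, since with the 3 other scalings tried 8 to 11 fell and 3 rose.

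Other regulators of the same stages changed as the 6 falling members did in most cases. Of 18 tested, 11 fell, 10 of them at least 2-fold, and 5 rose, with a median of -1.93. Again 38.5% of all rows were called lower, 21.6% lower by at least 2-fold and 40.9% higher. Spz1, a helix-loop-helix zipper gene of the testis, went from 50.2 ± 1.34 to 0.09 ± 0.0529 FPKM (log2 fold change -5.56). Kctd19 and Zfp541, whose products act together in pachytene cells, went from 119 ± 1.28 to 8.53 ± 0.227 and from 38.0 ± 0.240 to 6.14 ± 0.127. Ovol2 fell from 20.9 ± 0.142 to 0.83 ± 0.0520. The adjusted p-values of these 4 were 8.7e-09, 7.0e-09, 1.4e-08 and 1.4e-08. Among the 5 that rose, named after their values were seen, were the Y-linked zinc finger genes Zfy1 (from 2.25 to 4.33 FPKM) and Zfy2 (from 1.64 to 3.81).

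Genes tied to the members, by reported regulation or by class, were lower throughout. Over all tested rows, 38.5% were called lower and 21.6% were called lower by at least 2-fold. Of 12 genes with reported A-MYB activation, 12 fell, 9 of them at least 2-fold, with a median of -2.07. Piwil1, the piRNA-binding protein gene of pachytene cells, fell from 136 ± 6.98 to 1.75 ± 0.0950 FPKM, and Tdrd6 from 109 ± 0.554 to 0.32 ± 0.118. The cyclin gene Ccna1 fell from 42.7 ± 0.374 to 0.423 ± 0.0551 and the piRNA factor gene Mael from 412 ± 3.67 to 63.2 ± 1.76. The log2 fold changes of Piwil1, Tdrd6, Ccna1 and Mael were -5.64, -6.39, -4.94 and -2.69, each larger in size than that of Mybl1 itself. Their adjusted p-values ran from 8.6e-09 to 1.3e-08, the smallest of the list. Other genes of the list fell less than Mybl1, namely Mov10l1 (-0.54), Asz1 (-0.70) and a row shared by Ccnb1ip1 and Rpph1 (-0.76).

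Of 17 tested ciliary and axonemal genes of the class that RFX factors bind, 17 fell, 14 at least 2-fold, with a median of -3.47. The axoneme genes Spag17 and Spag6l fell from 40.5 ± 0.197 to 0.0933 ± 0.0289 FPKM and from 60.1 ± 0.463 to 0.32 ± 0.0721. The radial spoke gene Rsph1 fell from 732 ± 35.2 to 29.4 ± 1.28. Ift140, a gene of intraflagellar transport, fell from 60.1 ± 1.26 to 8.98 ± 0.293, a smaller change (-2.61) than those of the 3 axoneme and spoke genes (-5.25, -5.53 and -4.59).

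Of 14 haploid genes reported to need CREM, 14 fell, 13 at least 2-fold, with a median of -5.15. The protamine genes Prm1 and Prm2, whose products pack sperm DNA, fell from 140.03 ± 3.74 to 1.14 ± 0.118 FPKM and from 198 ± 2.40 to 0.74 ± 0.131. The transition protein gene Tnp1 fell from 211 ± 4.74 to 2.88 ± 0.422 and the sperm fibrous sheath gene Akap4 from 35.6 ± 1.36 to 0.23 ± 0.0917. Their log2 fold changes were -6.05, -6.84, -5.78 and -4.90, against -1.95 for Crem. In the same list Camk4 (-0.72) and Ace (-1.62) fell less than Crem. Of the 14 genes reported to need CREM, 8 are also among the 12 spermatid markers below and 1 among the 12 pachytene and diplotene markers. The pachytene and diplotene markers also share 2 genes with the A-MYB list and 1 with the ciliary list. The general germ cell genes share 2 with the A-MYB list. The lists therefore do not count separate genes.

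**Figure D5:**
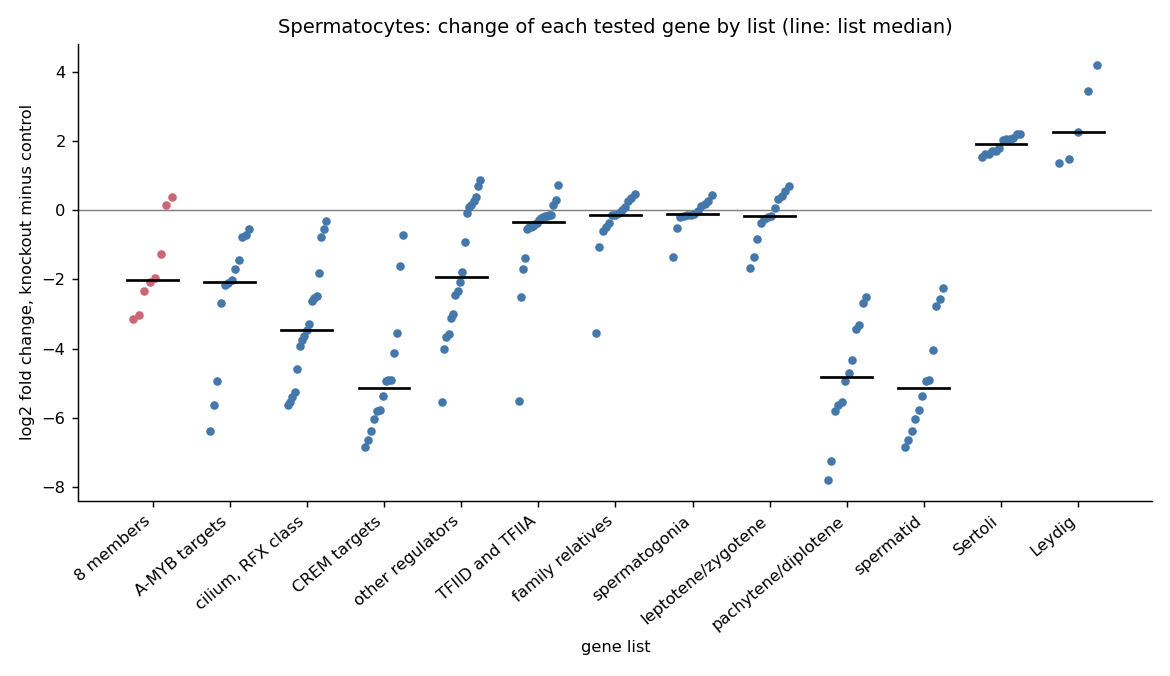
Log2 fold change of each tested gene (points; line at the list median) in knockout against control spermatocytes, by list. Medians lie at -2.01 for the 8 members, -2.07 for A-MYB targets, -3.47 for ciliary genes, -5.15 for CREM-dependent genes and -0.33 for TFIID and TFIIA genes, while Sertoli and Leydig cell markers lie above 0.

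Markers of stages and of other cells moved in the same libraries, where 40.9% of all tested rows were called higher and 38.5% lower. All 12 pachytene and diplotene markers fell (median -4.82), with the chaperone gene Hspa2 going from 318 ± 1.40 to 30.8 ± 0.716 FPKM, and all 12 spermatid markers fell (median -5.15). Of 12 leptotene and zygotene markers 7 fell and 4 rose (median -0.17), and of 12 spermatogonial markers 6 fell and 3 rose (median -0.11), or 1 and 6 with median centring. General germ cell genes were lower in sum, at 1086 to 1117 FPKM in control and 544 to 549 in knockout libraries. Within them Dazl was at 93.8% of control, going from 112 ± 1.85 to 105 ± 1.10, whereas Ddx4 fell from 157 ± 3.84 to 47.8 ± 1.67. All 8 were called lower, or 6 with each of the 3 other scalings, where median centring also called 1 higher.

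Somatic cell markers were higher, except for most of the fibroblast list. All 12 Sertoli cell markers rose, with a summed level of 971 to 1080 FPKM in control and 4183 to 4357 in knockout libraries, and the tight junction gene Cldn11 went from 64.8 ± 0.598 to 306 ± 3.26. Of the Leydig cell markers, 5 were tested and 5 rose (summed level 16.7 to 17.4, then 110 to 113). The 5 tested immune and the 6 tested myoid and endothelial markers rose as well, with summed levels of 13.1 to 18.6, then 30.0 to 34.6, and of 28.6 to 30.4, then 57.2 to 58.3. Of 7 tested fibroblast markers 5 fell and 1 rose, with quantile normalization 3 and 2. Their summed level was nevertheless higher, at 66.8 to 74.3 FPKM in control and 123 to 129 in knockout libraries, since the gene that rose, Vim, went from 32.8 to 110 FPKM. No marker of the Sertoli, Leydig, immune or myoid and endothelial lists was at 0 in every library. The part of cell content and stage in these marker changes and in the falls of the 6 members was not tested.

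The genes whose 6-library profiles were most like each member were sought among the 8560 rows that averaged 5 FPKM or more in control. Likeness was the distance between log2(FPKM + 1) profiles centred on the control mean. The nearest pairs with low distances were Taf7l with Rps24 (0.022) and Dld (0.023), Brdt with Zfp654 (0.026) and Taf4b with Hspg2 (0.042) and Ctcf (0.043). Brdt was next nearest to Tdrd1 (0.080), 1 of the A-MYB target genes, which went from 59.5 to 13.0 FPKM. Mybl1 was nearest to Wdr7 (0.058) and the histone acetyltransferase gene Kat7 (0.060), and Crem to 4933406P04Rik (0.053) and Mars2 (0.063). Tcfl5 was nearest to a row shared by Hhatl and Ccdc13 (0.076) and to Lrrc56 (0.099). Sox30 was nearest to a row shared by Zfp783 and Zfp956 (0.109) and to one shared by Mettl4-ps1 and Spdya (0.118). Rfx2 had the most distant neighbours, Fam205c (0.163) and Armc12 (0.261). Like Rfx2, Fam205c was highest in control replicate 1, at 13.28 FPKM against 8.39 and 9.46, a likeness that the search itself selects for.

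In GC2 cells the members were low or close to 0. Tcfl5 was listed at 0, 0 and 0.02 FPKM in control and 0, 0.03 and 0 in knockdown libraries, and Taf7l was at 0.13 or below in all 6. Brdt lay between 0.31 and 0.59 in control and between 0.37 and 0.48 in knockdown libraries. Crem lay between 0.40 and 0.66 in control and between 0.64 and 0.83 in knockdown, so its groups overlapped slightly. These 4 did not reach 1 FPKM in 3 libraries and were not tested.

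The line also lacked the general germ cell genes. Of 8, Tex101 and Mael had no row, and the other 6 summed to 0.15 to 0.22 FPKM in control and 0.21 to 0.42 in knockdown libraries, with Dazl listed at 0 in all 3 controls. Some fibroblast genes were abundant by contrast, with Col1a1 at 236 ± 9.35 and Vim at 137 ± 3.79 FPKM in control. The 8 fibroblast genes summed to 494 to 516 FPKM there, and 2 of them were below 1 FPKM in all GC2 libraries. Sertoli markers summed to 207 to 217 FPKM in control, and myoid and endothelial markers to 105 to 113. Of these 2 lists, 6 and 4 genes were below 1 FPKM throughout. The label of cultured spermatocytes was thus not matched by the general germ cell genes.

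The comparison of Phb knockdown with control GC2 cells could be made for 3 members, and 1 of them was called. Calls were made for 24.5% of 10791 tested rows, with 10.7% higher and 13.9% lower, and 44.9% did not overlap. Mybl1 was at 2.03, 2.74 and 2.53 FPKM in control and 2.44, 2.72 and 2.07 in knockdown libraries. Its groups overlapped, and the log2 fold change was -0.01 (SE 0.12, adjusted p = 0.97). Rfx2 was at 0.96, 1.02 and 1.01 in control and 1.18, 1.52 and 1.69 in knockdown libraries. All 3 knockdown values were above all controls, but the test did not pass (log2 fold change 0.30, SE 0.095, adjusted p = 0.078).

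Taf4b was represented in GC2 by an assembled row only. It was at 2.25, 2.31 and 2.17 FPKM in control and at 2.76, 3.56 and 3.05 in knockdown libraries, with no overlap. It was called higher (log2 fold change 0.34, SE 0.086, adjusted p = 0.041). This call did not hold without any 1 of the 3 control libraries, at adjusted p = 0.097, 0.096 and 0.116, or without knockdown replicate 2 or 3, at 0.076 and 0.103. It was also lost without a filter on low values (adjusted p = 0.095).

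Among relatives in GC2, Brd2 rose from 36.8 ± 0.642 to 45.5 ± 0.987 FPKM (0.30 on the log2 scale, adjusted p = 0.0057), Mybl2 from 8.67 ± 0.379 to 11.7 ± 0.773 (adjusted p = 0.012) and Taf4 from 7.32 ± 0.398 to 10.8 ± 1.15 (adjusted p = 0.016). These 3 were the only calls among 11 tested relatives, whose median was -0.06 against -0.04 over all rows. Of 19 tested TFIID and TFIIA genes 2 were called, Taf4 and Taf8, both higher. That count was 1 without control replicate 2 or 3, without knockdown replicate 2 or without a filter on low values, and 0 without knockdown replicate 3 or with the replicate number as a block. A single A-MYB target was tested, Tdrd9, a piRNA pathway helicase gene. It rose from 4.05 ± 1.28 to 19.2 ± 2.85 FPKM (2.02 on the log2 scale, adjusted p = 0.0029), with control libraries at 2.91, 3.82 and 5.43 and knockdown libraries at 15.88, 20.84 and 20.78. This GC2 row held 1 assembled transcript and no annotated one. In spermatocytes the row named Tdrd9 held 5 annotated transcripts and 1 assembled one. That row fell from 38.4 ± 1.25 to 13.4 ± 0.659 (log2 fold change -1.45, adjusted p = 5.5e-07), so the 2 changes may not concern the same transcripts. Of 6 tested ciliary genes 1 was called, Ift140, which rose from 3.83 ± 0.271 to 5.11 ± 0.0681 FPKM (adjusted p = 0.015). Without knockdown replicate 2 or 3, 0 ciliary genes were called higher.

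The difference between both changes was tested for Mybl1, Rfx2 and Taf4b in 1 limma fit over 8762 genes, of which 60.7% differed. The spermatocyte change was lower than the GC2 change by 1.26 on the log2 scale for Mybl1 (-1.26, SE 0.12, adjusted p = 1.1e-05). For Rfx2 the difference was -3.45 (SE 0.22, adjusted p = 4.7e-07). At its low GC2 control level Rfx2 could not have fallen on this scale as far as in spermatocytes. The test for Rfx2 therefore could not have found equal changes. Its GC2 row also held 2 annotated transcripts and its spermatocyte row 5. For Taf4b the difference was 0.05 (SE 0.097, adjusted p = 0.66), but it sets the annotated row in spermatocytes against the assembled row in GC2 cells. The knockout and the knockdown also differ in how Phb was lowered and in how far its level fell, so tissue and method cannot be told apart here.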

How the data were processed

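Gene expression was measured by RNA-seq in 12 mouse libraries, made with a directional kit per the labels' protocols. The authors deposited FPKM values with 2 decimals, 1 table per library. Per the submitters' processing notes, the tools were HISAT2 2.1.0 and DESeq, with GRCm38 and mm10 as builds. The quantifier, the annotation and any use of strand were not given in the sources used here. Spermatocyte and GC2 files hold different gene rows (36987 and 25911), so each was fitted on its own. Rows without a gene name (164 and 1200) were left out. Samples were grouped by their labelled cell type and genotype.

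Rows entered the test with 1 FPKM or more in at least 3 of 6 libraries. The test was limma 3.58.1 in R 4.3.3 with a variance trend on log2(FPKM + 1), two-sided, with Benjamini-Hochberg adjustment over all tested rows and a threshold of 0.05. An interaction term over all 12 libraries tested the difference between both changes. Scripts were tested on simulated data. Python 3.11.15, pandas 2.3.3, numpy 2.4.6, scipy 1.17.1 and matplotlib 3.10.9 gave summaries, exact permutation tests and figures. Positions are from GENCODE M21 on GRCm38.

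The 8 genes, the gene lists and the naming rule were chosen with earlier results of these data known. The rule names all 8 members in every library, up to 4 tested rows per list with the smallest adjusted p, the relatives in the ratio pairs and the 2 rows most like each member. A ratio planned for Brdt is not reported here. The other genes named were chosen after their values were seen. FPKM does not correct for composition, so other pseudocounts, filters, scalings, a replicate block and the removal of each library were tried. No source states depth. A weak fit to the steps between low FPKM values gave about 15.2 to 16.1 M fragments for spermatocyte control and 11.5 to 15.6 M for knockout libraries. Replicates correlated across genes at Pearson's r of 0.984 to 0.988 in spermatocytes and 0.924 to 0.937 in GC2 cells.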

Additional observations from a re-analysis of the deposited data

Results flagged for a closer look

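For Mybl1 the spermatocyte change and the GC2 change differed by -1.26 on the log2 scale, because the gene fell in knockout spermatocytes (-1.27) and was not called in knockdown GC2 cells (-0.01). For Rfx2 they differed by -3.45, with -3.15 in spermatocytes and 0.30 in GC2 cells. Both differences passed limma's interaction test (adjusted p = 1.1e-05 and 4.7e-07), as did 60.7% of the genes tested in this way. Mybl1 lay at 2.03 to 2.74 FPKM and Rfx2 at 0.96 to 1.69 FPKM in the GC2 libraries, against means of 18.0 and 19.98 FPKM in control spermatocytes. From its GC2 level Rfx2 could not have fallen on the log2(FPKM + 1) scale as far as in spermatocytes, so equal changes were not possible for it. The causes of both differences were not tested.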

How the results depend on the processing

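All 8 spermatocyte calls kept their direction and stayed past the threshold under every alternative, except for Taf4b with both rows summed (-0.22, 1 member higher and 7 lower). The changes ranged from -3.80 to -2.91 for Rfx2, -1.37 to -1.11 for Mybl1 and 0.13 to 0.31 for Taf7l. With a filter at 5 FPKM, 4344 rows were higher and 3896 lower in spermatocytes, and 764 higher in GC2 cells, since fewer rows were tested. Scaling moved the median of all spermatocyte rows from 0.05 to 0.28 (quantile normalization), 0.21 (median centring) and 0.12 (without mitochondrial rows).

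In GC2 cells the count of members called higher, 1 as reported, was 0 without a filter and 2 with quantile normalization, where Rfx2 passed as well (adjusted p = 0.043). At the 5 FPKM filter it was 0 by construction, since no member reached that level in any GC2 library. Without 1 library it ranged from 0 to 2, with 2 only without knockdown replicate 1, and all rows called higher ranged from 744 to 962, with 750 and 744 without knockdown replicates 2 and 3. The Mybl1 change took the other sign with quantile normalization (0.037), median centring (0.035) and without mitochondrial rows (0.062), and ranged from -0.096 to 0.065 without 1 library, never past the threshold. The Taf4b difference between both kinds of sample was -0.030 with a pseudocount of 0.1 and -0.024 without mitochondrial rows, and never passed.

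With the replicate number as a block, 0 members were called higher in GC2 cells and the Taf4b call was lost (adjusted p = 0.075). In spermatocytes the block left 6 members lower and 2 higher. Deviations of same-numbered libraries correlated at 0.0074, -0.054 and 0.0074 in spermatocytes and at 0.124, 0.078 and 0.061 in GC2 cells, where each library correlated best with its own number, a hint from the data only. The samples share a number, not a stated origin. Where no cause is given above, the cause was not tested.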

Other observations

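A second GC2 row named Crem, with an assembled transcript only, was at 0.11, 0 and 0 FPKM in control and at 1.15, 0 and 0 in knockdown libraries, so that its signal lay almost wholly in knockdown replicate 1. Uchl1, 1 of the spermatogonial markers counted above, rose in GC2 cells, from 31.6 FPKM without to 53.9 with the knockdown (log2 fold change 0.75, adjusted p = 0.0083 by limma), and in spermatocytes, from 99.6 to 119 FPKM in the knockout (0.26, adjusted p = 0.00023). It was picked after its values were seen and does not stand for its list. Of the 12 markers, 6 fell and 3 rose in spermatocytes. In GC2 cells 2 were tested and 1 was called, and 7 were below 1 FPKM in all libraries.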
